A study of Mus musculus with 2 samples.

Results

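The genes of meiotic recombination and synapsis were described in a map of 5-hydroxymethylcytosine (5hmC) in mouse prospermatogonia, which are male germ cells before birth. They are 37 named genes, listed by the function of their proteins, out of 21775 protein-coding genes on chromosomes 1 to 19, X and Y. Each was taken with its gene span in mouse build mm10 and 10 kb on each side, and the peaks that overlapped this window by at least 1 bp were collected. The data are 1 wild-type library of DNA captured by 5hmC-Seal, from 30000 germ cells pooled from several embryos at E17.5 of gestation, with 50 ng of DNA taken into the assay. A library of the DNA before capture, from the same batch, cells, genotype and day, belongs to the series, and no file of it was used here. In 5hmC-Seal a tagged glucose is placed on 5hmC, biotin is added, and streptavidin pulls down the DNA fragments that carry it. No mutant was among the samples used, and with 1 captured library there was no replicate and no test between samples.

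The authors' list held 108395 broad peaks with a median fold enrichment of 3.35 over the background that the caller assumed, and a median width of 636 bp. It reached down to a −log10 q of 1.01, a q of 0.0976, so weak calls are in it. Read counts were not in the file, the depth is unknown, and intervals given here cover counting error only. A peak from a mark in many cells at a low level and one from a mark in few cells cannot be told apart in pooled cells. A list of DNA peaks gives no RNA level, so the purity of the germ cells could not be checked on marker genes.

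5hmC is made from 5-methylcytosine by the TET enzymes, and is usually found in gene bodies and at enhancers more than at CpG-rich promoters. Meiotic recombination begins when SPO11 cuts DNA; the broken ends are resected, and the recombinase DMC1 carries them into the homologous chromosome. The chromosomes are held by the synaptonemal complex on a core of meiotic cohesin, their telomeres move along the nuclear envelope, and some breaks become crossovers. In males meiosis starts after birth, so in these cells the programme has not begun. Several promoters of this class are known to be kept silent by DNA methylation in somatic cells.

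Most of the meiotic genes had a peak nearby, and most of these peaks were weak. At least 1 peak lay in the window of 32 of the 37 genes (86.5%; exact Clopper-Pearson 95% interval 71.2 to 95.5), against 78.7% of all protein-coding genes. In the gene span itself, 23 genes (62.2%; 44.8 to 77.5) had a peak, against 61.6% of all. Both shares were near the background. The windows held 123 different peaks, of which 68 touched a meiotic gene and 55 lay in the flanks. Their median fold was 3.29, with a range from 2.67 to 8.43, and their median width was 601 bp. Of these 123 peaks, 13 reached a −log10 q of 5, called strong here, which is 10.6% against 11.9% of all peaks. All peaks include those outside genes. Among peaks in protein-coding spans 4.83% were strong, but the 123 include flank peaks, so neither share is a like background. Strong peaks lay in the windows of 7 genes (18.9%; 7.96 to 35.2), against 16.3% of protein-coding genes. The 7 were Mei4, Rec114, Mnd1, Hfm1, Stag3, Majin and Terb1.

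Of the 55 flank peaks, 36 touched another protein-coding gene, 1 touched only a non-coding gene and 18 lay on no annotated gene. Without the 36 peaks, 28 of 37 genes still had a peak in their window, against 73.1% of all genes under the same rule. The genes differed widely among themselves. The share of the span covered by peaks ran from 0% in 14 genes to 16.4% in Msh5, with a median of 1.09%, against 2.25% over all protein-coding genes. A share over 5% was found in 8 genes: Spo11, Mei1, Psmc3ip, Mnd1, Hsf2bp, Msh5, Mlh3 and Rec8. Among all protein-coding genes 38.3% had such a share. The 6 genes with 4 or more peaks (Mei1, Rec114, Mnd1, Hsf2bp, Mlh3 and Mei4) held 42 of the 68 span peaks.

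**Figure D1:**
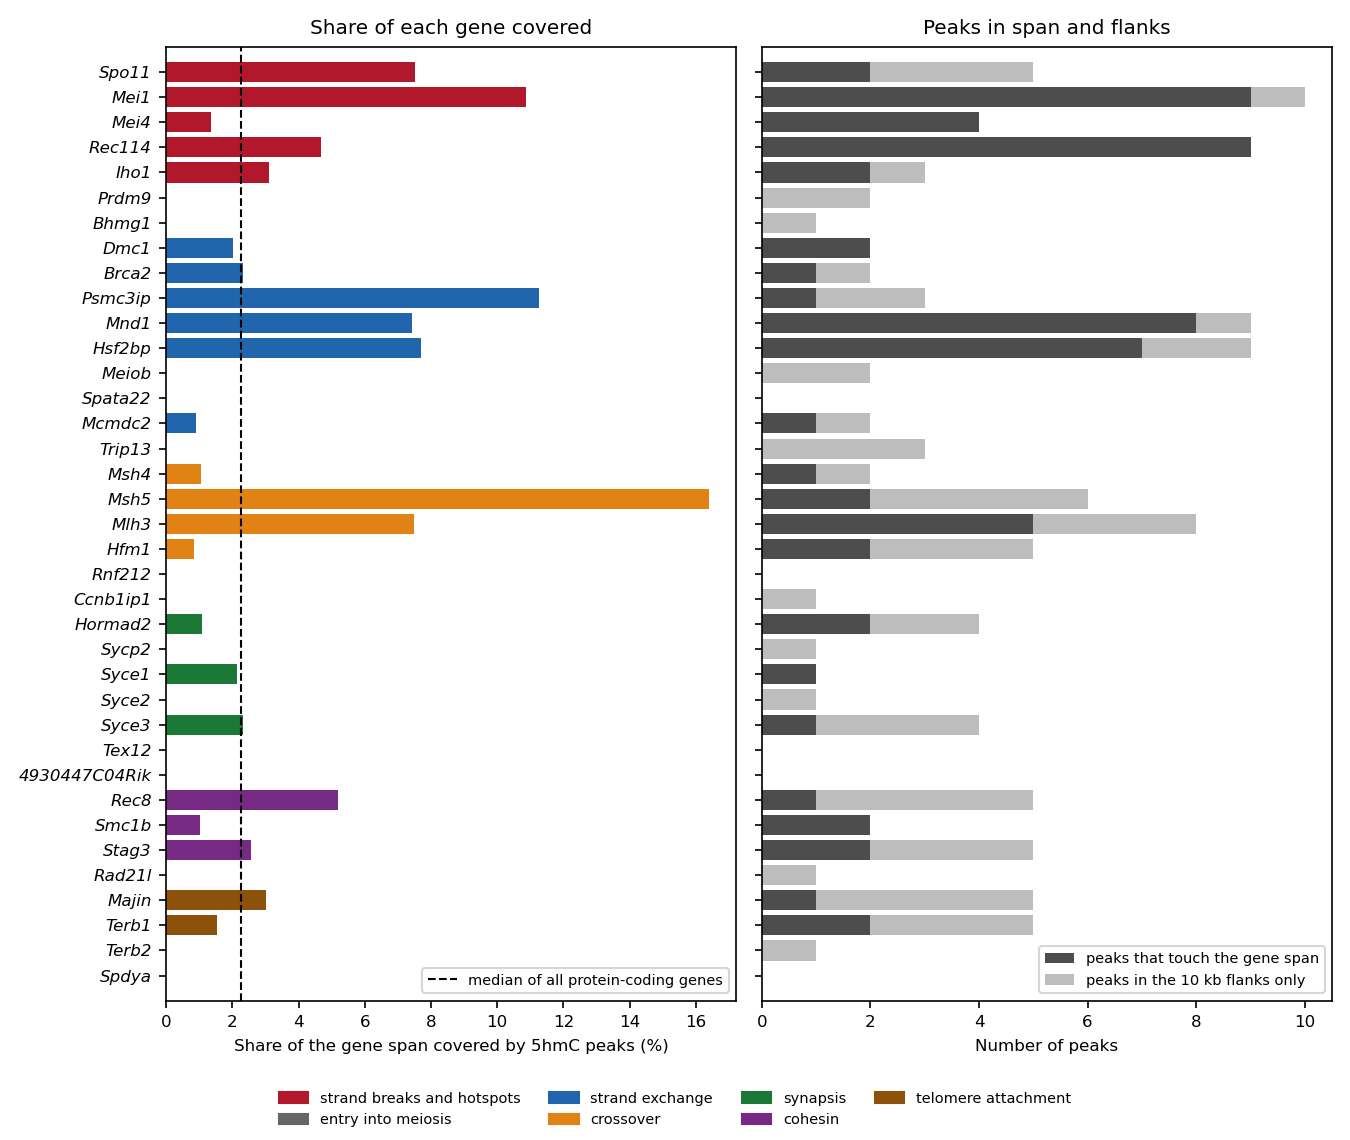
Share of each meiotic gene covered by 5hmC peaks (left, in percent, coloured by function, with the median of all protein-coding genes dashed) and the number of peaks in the span and in the 10 kb flanks (right), in the captured library. Msh5 is highest at 16.4%, and 14 genes have no bar on the left because no base of their span was covered.

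No meiotic gene with an annotated promoter window had a peak on it. RefSeq promoter windows, from 250 bases before to 50 bases after an annotated start, were given for 32 of the 37 genes, with strand. Spo11, Meiob, Mcmdc2, Majin and Terb2 had no entry. None of the 32 had a peak in such a window (0%; 0 to 10.9), against 4.48% of 17491 protein-coding genes with an entry, so a share as low as the background could not have been told from 0. Within 1 kb of an annotated start, 2 of 32 genes had a peak (6.25%; 0.766 to 20.8), against 10.1% of all. These were Mei1, with a peak of fold 3.87 that ended 616 bp before an annotated start, and Trip13, with a peak of fold 3.32 at 930 bp that lay in the neighbouring gene Brd9. That start of Mei1 lies 12.4 kb inside the span, so its peak was within the gene and not at its 5′ end. Annotated starts also lay inside the span of, among others, Rec114 (81.1 kb), Spdya (25.2 kb), Stag3 (8.0 kb), Spata22 (3.18 kb) and Rad21l (2.09 kb). For these genes the promoter windows and distances refer to the inner start and not to the 5′ end of the span. The median distance from a start to the nearest peak was 7.03 kb, against 5.75 kb over all genes.

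Within 1 kb of either end of the span, 8 of the 37 genes had a peak (21.6%; 9.83 to 38.2), against 26.6% of all protein-coding genes. Of the same 32 genes, 6 had a peak within 1 kb of the 3′ end of the span (18.8%; 7.21 to 36.4) and 1 within 1 kb of the 5′ end (3.12%; 0.0791 to 16.2). All protein-coding genes showed the same order, with 21.2% at the 3′ end and 8.38% at the 5′ end. The 6 genes were Iho1, Brca2, Hsf2bp, Msh5, Hfm1 and Rec8. For Rec8 the peak began 355 bp past the end of the gene, in the neighbouring gene Ipo4, and for Hfm1 it lay 789 bp past the end, on no annotated gene. Of the 64 span peaks in genes with a known strand, the span was divided into 3 equal parts, and 24 had their midpoint in the 5′ part, 12 in the middle part and 28 in the 3′ part. These are 37.5%, 18.8% and 43.8%, against 30.9%, 31.4% and 37.7% for peaks in all protein-coding genes. Peaks of 1 gene are not independent of each other.

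**Figure D2:**
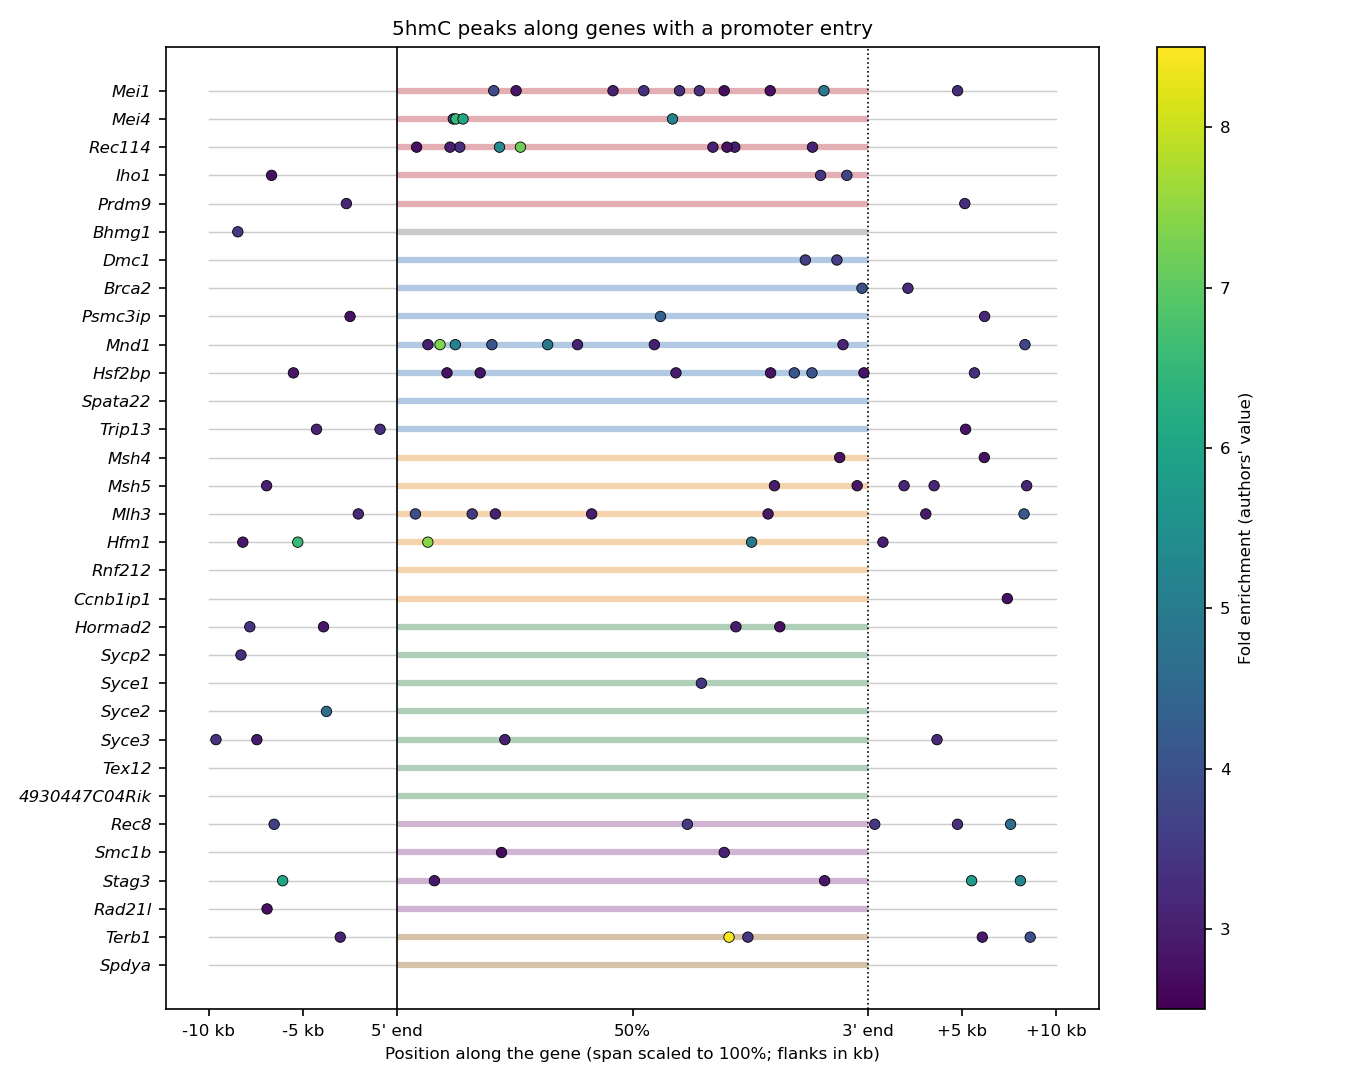
Midpoints of span peaks, and near edges of flank peaks, along the 32 meiotic genes with a known strand. The span is scaled to 100% and the flanks are in kb, each point is 1 peak coloured by its fold, and line colours give the function. Of the 32 genes, 1 has a peak within 1 kb of the 5′ end, and the highest fold, 8.43, lies in the 3′ part of Terb1.

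CpG, the dinucleotide in which mammalian DNA is methylated, was counted in the same promoter windows. The 36 promoter windows of the 32 genes had a median of 18.5 CpG in their 300 bases, against 13 in 21262 windows of protein-coding genes, and a median G+C share of 60.7% against 56.3%. The ratio of observed to expected CpG was at least 0.6 in 24 of the 36 (66.7%), against 47.7%. Over all genes, a peak lay in the promoter window of 2.33% of the 8895 genes whose highest ratio was at least 0.6, and of 6.70% of the 8596 genes with a lower ratio. The meiotic genes divided into 22 with such a ratio and 10 without, and 1 gene of each class had a peak within 1 kb of a start.

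Sequences of the 250 bases before an annotated start held from 1 CpG, at Rad21l, to 34, at Hfm1. Both of these lay wholly on the gene span, since the start is inside it. Printed are 6 that lay on an annotated gene span for at most 30 of these bases, from RefSeq on build GRCm38.p6, on the strand of the gene, with each CpG in capitals. Mnd1 (chr3:84155787-84156036, minus strand), Mei4 (chr9:81863420-81863669, plus strand) and Terb1 (chr8:104509888-104510137, minus strand) are shown because a strong peak lay further inside each gene. Psmc3ip (chr11:101095436-101095685, minus strand) is shown as the partner of Mnd1, and Ccnb1ip1 (chr14:50795729-50795978, minus strand) for its low count of 7 CpG. Prdm9 (chr17:15564355-15564604, minus strand) is shown because it holds 2 of the motifs described next.
Mnd1: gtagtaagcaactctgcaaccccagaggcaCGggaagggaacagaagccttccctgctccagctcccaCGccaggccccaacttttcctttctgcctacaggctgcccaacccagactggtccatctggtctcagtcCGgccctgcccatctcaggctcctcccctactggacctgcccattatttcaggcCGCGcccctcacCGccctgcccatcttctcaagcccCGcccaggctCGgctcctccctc
Mei4: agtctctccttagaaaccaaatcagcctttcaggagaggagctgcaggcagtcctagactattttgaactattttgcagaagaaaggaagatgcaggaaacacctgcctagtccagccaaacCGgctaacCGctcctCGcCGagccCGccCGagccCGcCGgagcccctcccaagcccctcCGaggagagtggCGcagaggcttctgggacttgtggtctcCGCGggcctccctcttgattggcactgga
Terb1: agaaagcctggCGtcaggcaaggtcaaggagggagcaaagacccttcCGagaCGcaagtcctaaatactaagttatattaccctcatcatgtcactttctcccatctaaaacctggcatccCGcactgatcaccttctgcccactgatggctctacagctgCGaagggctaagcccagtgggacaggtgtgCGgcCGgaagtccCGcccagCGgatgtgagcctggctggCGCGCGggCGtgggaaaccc
Psmc3ip: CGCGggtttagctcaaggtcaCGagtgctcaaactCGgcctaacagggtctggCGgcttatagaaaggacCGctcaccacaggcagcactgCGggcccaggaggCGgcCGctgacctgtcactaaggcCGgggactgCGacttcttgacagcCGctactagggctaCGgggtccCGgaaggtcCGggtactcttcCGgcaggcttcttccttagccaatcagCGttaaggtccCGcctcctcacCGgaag
Ccnb1ip1: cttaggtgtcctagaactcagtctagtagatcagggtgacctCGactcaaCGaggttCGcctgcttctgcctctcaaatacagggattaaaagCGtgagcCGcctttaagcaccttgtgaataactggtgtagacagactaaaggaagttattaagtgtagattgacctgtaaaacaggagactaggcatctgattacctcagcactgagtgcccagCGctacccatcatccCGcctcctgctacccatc
Prdm9: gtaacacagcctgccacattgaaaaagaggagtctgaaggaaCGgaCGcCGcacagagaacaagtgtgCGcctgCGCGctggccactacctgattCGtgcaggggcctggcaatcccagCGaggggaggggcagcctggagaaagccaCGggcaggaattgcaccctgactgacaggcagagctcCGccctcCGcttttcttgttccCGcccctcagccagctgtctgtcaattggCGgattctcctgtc

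The 300-base windows were searched on both strands for 3 exact motifs. They were CACGTG, an E-box bound by MYC- and MAX-type factors, GCGGGAA, a form of the E2F motif, and CNCCTCAG, the motif described for STRA8, which starts meiosis with MEIOSIN. GCGGGAA was found in 12 of 32 genes (37.5%), against 6.84% of all genes with an entry. CACGTG was found in 7 genes (21.9%), against 8.91%, and CNCCTCAG in 9 genes (28.1%), against 9.86%. CACGTG and GCGGGAA were found together in 6 genes, Bhmg1, Rec114, Rnf212, Stag3, Syce2 and Tex12, against 0.806% of all genes. The windows of Rec114 and Stag3 lie at starts inside the gene span. The sequence of Prdm9 above holds GCGGGAA and CNCCTCAG. Matches of different motifs overlapped in 2 of the 36 windows. A match is a description of the sequence, and the CpG content of the windows moves with the frequency of motifs that contain CpG; its part in these shares was not tested.

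Genes of break formation had 33 peaks in their windows, 5 of them strong, and all 5 strong ones lay in Mei4 and Rec114. SPO11 is the enzyme that cuts, MEI1, MEI4, REC114 and IHO1 are needed for it to act on the chromosome axis, and PRDM9 marks the hotspots by methylating histone H3. All 6 genes had a peak in the window and 5 had one in the span, against 78.7% and 61.6% of all protein-coding genes. There were 26 span peaks over 634.8 kb (41.0 per Mb; exact Poisson 95% interval 26.8 to 60.0), against 55.8 per Mb of all protein-coding spans. Mei4 and Rec114 made up 0.512 Mb of this length, and protein-coding spans over 100 kb held 40.8 per Mb. Mei1, on chromosome 15 from 82070074 to 82126817, held 9 peaks that covered 10.9% of it, with folds from 2.72 to 4.94. Rec114, 169.9 kb long on chromosome 9, also held 9 peaks. At fold 7.16 the strongest covered 58777813 to 58778600 and the next had 5.35, while the other 7 lay between 2.72 and 3.34.

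Mei4 was the longest of the genes at 342.3 kb and held 4 peaks, which covered 1.34% of it. They had folds of 3.62, 6.54, 6.07 and 5.19, and 3 of the 4 were strong. The 3 nearest to the 5′ end lay together, between 40.9 and 48.0 kb from it, and the widest of them, 2898 bp, was the widest peak in any meiotic window. Spo11, on chromosome 2 from 172977379 to 172993576, had a peak of fold 4.54 and one of 2.75 in its span, which covered 7.53%. Iho1 had peaks of 3.72 and 3.44 near its 3′ end, and both lay on the overlapping gene 1700102P08Rik as well. Prdm9 had no covered base in its 21.3 kb, like 14 of the 37 genes in all and 38.4% of all protein-coding genes. Its window peaks, at fold 3.13 and 3.29, lay 2689 bp upstream and 5136 bp downstream.

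Bhmg1, which encodes MEIOSIN, the partner of STRA8 at entry into meiosis, had no peak in its span. The single peak in its window, of fold 3.53, lay 8453 bp upstream in Fbxo46. Its surroundings were not poor in peaks, since 9.14% of the 500 kb on each side was covered.

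Among the genes of strand exchange, 6 of 9 had a span peak, with 20 peaks over 371.1 kb (53.9 per Mb; 32.9 to 83.2). Both values were near those of all protein-coding genes, 61.6% and 55.8 per Mb. MND1 and PSMC3IP (HOP2) form a pair that helps DMC1 invade the other chromosome. Mnd1 held 8 peaks over 7.42% of its span. Its strongest, on chromosome 3 from 84149093 to 84150121, had fold 7.35 and a −log10 q of 10.5, and lay 5665 bp inside the gene from its start. The next peak inward had 5.15 and the others lay between 3.01 and 4.87. Psmc3ip, the shortest gene at 3.30 kb, had 1 peak of fold 4.30, which made up 11.3% of it.

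Dmc1 itself, the gene of the meiotic recombinase, had 2 peaks of fold 3.592 and 3.603. Both lay in the 3′ part of the gene, 40.8 and 37.9 kb from the 5′ end, and covered 2.01%. Brca2, whose protein acts in repair by strand exchange, had 1 peak of fold 3.96 at its 3′ end. Hsf2bp (MEILB2), which brings BRCA2 to meiotic breaks, had 7 span peaks over 7.70%, with folds up to 4.11. Meiob and Spata22, whose proteins bind single-stranded DNA as a complex, had no span peak. Meiob had 2 flank peaks of fold 3.64 and 3.54, and the nearest peak to Spata22 was 22.5 kb away. Mcmdc2, an MCM-like gene needed for break repair, had 1 span peak of 3.89. Trip13, which encodes an ATPase that removes HORMAD proteins from synapsed axes, had none in its span and 3 in its flanks, with folds from 2.76 to 3.32.

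In the crossover group 4 of 6 genes had a span peak, near the 61.6% of all protein-coding genes, with 10 peaks over 243.5 kb (41.1 per Mb; 19.7 to 75.5, against 55.8). MSH4 and MSH5 form the clamp that stabilises crossover intermediates, and their genes lay far apart in coverage. Msh5, on chromosome 17 from 35028605 to 35046997, was 16.4% covered by peaks of fold 2.84 and 2.92. Both were weak, with −log10 q of 1.19 and 1.21. The highest coverage among the meiotic genes thus came from peaks that a q of 0.05 would have left out. That cut would also have removed every span peak of Msh4, Hormad2, Stag3 and Majin. It would have left out 28.5% of the peaks in the meiotic windows, against 22.8% of all peaks. Msh4 was 1.05% covered by 1 peak of fold 2.77. Mlh3, a gene needed to resolve crossovers, held 5 peaks over 7.48%, and its highest fold, 3.92, was also the peak nearest to its start, 1197 bp away.

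Hfm1, a DNA helicase gene, was covered over only 0.837% of its 86.52 kb and yet had strong peaks. The first, with fold 7.41, covered chromosome 5 from 106920834 to 106921277, 4.61 kb inside the gene from the annotated start. The other, of fold 6.56, lay 5271 bp upstream of the span on no annotated gene. Rnf212, which encodes a SUMO-ligase-like protein, had no peak in its window, and the nearest was 22.7 kb away. Ccnb1ip1 (HEI10), an E3 ligase gene of the same pathway, had 1 peak of 2.74, located 7392 bp downstream in Ttc5.

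Synapsis genes had 11 peaks in their windows, and all were weak. Of 7 genes 3 had a span peak, against 61.6% of all protein-coding genes, with 4 peaks over 246.1 kb (16.3 per Mb; 4.43 to 41.6, against 55.8). Tex12 and 4930447C04Rik (SIX6OS1), which encode parts of the central element that joins the paired axes, had no peak in their windows, and the nearest lay 41.1 and 37.5 kb away. Of the other central element genes, Syce1 had 1 span peak of 3.43, Syce3 had 1 of 3.03, and Syce2 had none in its span. The highest fold of the group, 4.67, lay 3747 bp upstream of Syce2 in Farsa. Hormad2, an axis gene of 95.4 kb, had 2 peaks of 2.76 and 2.96 in its 3′ part. Sycp2, which encodes a lateral element protein, had no span peak in 62.48 kb and 1 flank peak of 3.29 in Fam217b.

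All 4 meiotic cohesin genes had a peak in their windows, and 3 had one in the span, against 78.7% and 61.6% of all protein-coding genes. Inside these genes peaks were weak, while 3 strong peaks flanked Stag3. Rec8, the gene of the kleisin that holds sister chromatids in meiosis, had a span peak of 3.53, and its window reached 4.60 in Ipo4. Stag3 had folds of 2.88 and 2.87 in its span, the first of them also on Gpc2. Outside the span were 6.01 at 6072 bp upstream, in Gal3st4, and 5.80 and 5.25 at 5496 and 8087 bp downstream, on no annotated gene. Smc1b had 2 peaks of 3.04 and 2.67, both also within the overlapping span of Fam118a. Rad21l, the gene of the other meiotic kleisin, had no span peak and 1 of 2.75 upstream.

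Telomere attachment genes held the peak with the highest fold in any of the 37 windows. MAJIN, TERB1 and TERB2 tie telomeres to the nuclear envelope, and SPDYA activates CDK2 there. The peak lay in Terb1 on chromosome 8 from 104465170 to 104465554, with fold 8.43 and a −log10 q of 11.99, and another span peak at 3.44 lay close to it. Majin had 1 weak span peak of 2.76, and its flanks held a strong peak of 6.39, 3613 bp before the lower coordinate of the gene. Terb2 had 1 flank peak of 4.31 on the pseudogene Gm14058. Spdya had no peak in its window, and the nearest was 11.5 kb away. The group had 3 span peaks over 185.8 kb (16.1 per Mb; 3.33 to 47.2, against 55.8), an interval that overlaps those of all groups above.

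Long genes meet a peak more often than short ones, so the counts were also read by length. The meiotic genes were longer than others, with a median span of 37.5 kb against 17.2 kb. At the rates of the length class of each gene, 27.5 of the 37 would have had a span peak (74.3%), and 23 had one. For the window the rate gives 31.4 genes (84.9%), and 32 had a peak. The shortfall lay in genes of 20 to 50 kb, where 9 of 18 (50.0%; 26.0 to 74.0) had a span peak against 77.3% of all such genes. That class was singled out among 5 after its values were seen. With flanks, 15 of the 18 had a peak (83.3%), against 86.1%. In the 9 genes of 50 to 100 kb, 7 had a span peak (77.8%; 40.0 to 97.2), against 86.5%, and 8 had a window peak, against 91.3%. Both genes over 100 kb, Mei4 and Rec114, had a span peak, as did 93.8% of such genes. Of the 4 genes of 10 to 20 kb, 3 had a span peak against 66.6%, and 4 a window peak against 82.5%. Of the 4 under 10 kb, 2 had a span peak against 31.1%, and 3 a window peak against 62.9%. The median share covered was 0.446% in the meiotic genes of 20 to 50 kb, against 4.34% of all such genes, and 1.09% at 50 to 100 kb, against 3.98%. In the 4 genes of 10 to 20 kb it was 4.83% against 4.99%, in the 4 under 10 kb 2.59% against 0%, and in the 2 over 100 kb 3.01% against 2.64%.

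**Figure D3:**
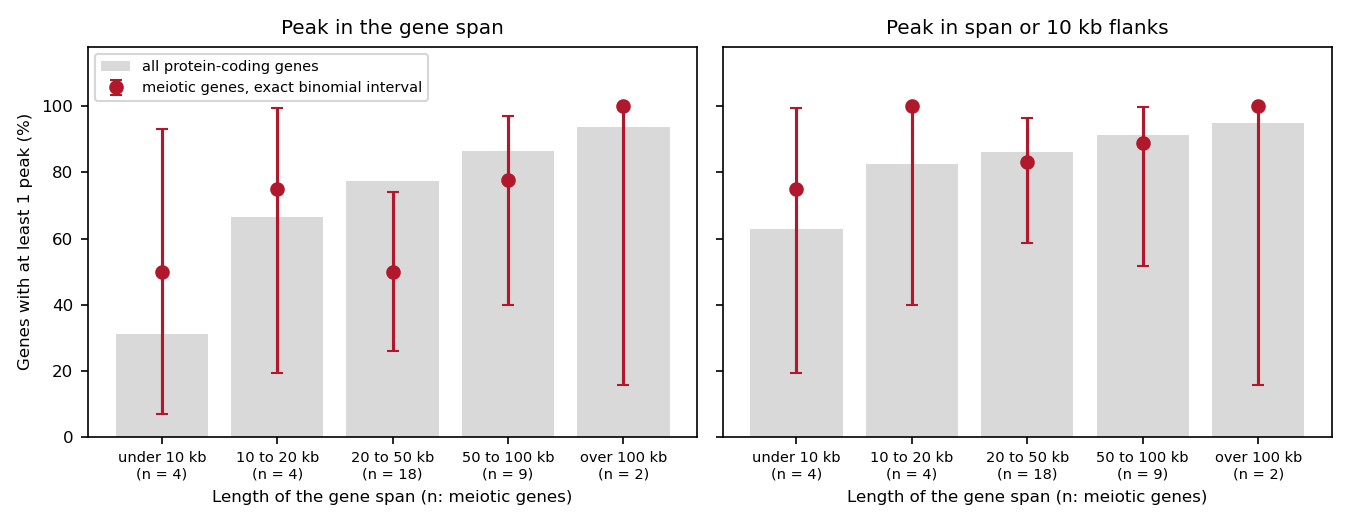
Percentage of genes with at least 1 peak in the gene span (left) and in the span or 10 kb flanks (right), by length of the span. Grey bars are all protein-coding genes and red points the meiotic genes with exact 95% intervals. The meiotic genes of 20 to 50 kb stand at 50.0% on the left against 77.3%, and at 83.3% on the right against 86.1%.

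Peaks were sparser inside the meiotic genes than beside them. The spans held 68 peaks in 1.842 Mb, 36.9 per Mb (exact Poisson 95% interval 28.7 to 46.8), and the flanks held 55 more in 0.74 Mb, 74.3 per Mb (56.0 to 96.7). The spans of all protein-coding genes held 55.8 per Mb (55.4 to 56.3). Covered length followed the same order, with 2.63% of the meiotic spans, 5.73% of their flanks and 4.93% of all protein-coding spans. Peaks that touch a span were counted there and not in the flanks. Of the 55 flank peaks, 36 touched another protein-coding gene. The flank length that lies on such genes was not measured, and the part of neighbouring genes in the contrast was not tested. The flanks of all protein-coding genes were not counted apart. Spans and flanks together held 47.6 per Mb (39.6 to 56.8) in the meiotic genes and 53.2 in all protein-coding genes. Without Mei4 and Rec114, the 2 genes over 150 kb, the meiotic spans held 41.4 per Mb. By length class, meiotic spans under 10 kb held 93.9 per Mb against 95.8 of all such spans. At 10 to 20 kb the values were 82.6 against 93.1. At 20 to 50 kb they were 26.8 (15.3 to 43.6) against 79.2. At 50 to 100 kb they were 49.1 (33.6 to 69.3) against 68.6, and over 100 kb 25.4 (13.5 to 43.4) against 40.8. Neither the densities of the function groups nor their shares of genes with a peak were matched for length. At a −log10 q of at least 5 the meiotic spans held 4.34 per Mb, from 8 peaks, and all protein-coding spans 2.70. No interval was computed for the 4.34, so these densities were not told apart. Of the span peaks, 8 of 68 were strong (11.8%, interval 5.22 to 21.9), against 4.83% of peaks in all protein-coding spans. But 5 of the 8 lay in Mei4 and Rec114, and the interval treats peaks of 1 gene as independent. Counted by gene, 5 of 37 had a strong span peak (13.5%; 4.54 to 28.8), against 8.83%.

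The meiotic genes were set against their own neighbourhoods, a comparison chosen after their values were seen. In 31 of the 37 genes (83.8%; exact Clopper-Pearson 95% interval 68.0 to 93.8) the span was less covered by peaks than the 500 kb on each side, against 63.4% of all protein-coding genes. The median share covered was 1.09% in the spans and 6.68% in the surroundings, while the surroundings of all protein-coding genes had a median of 5.07%. Around Spo11 the surroundings were 15.4% covered and the gene 7.53%, around Majin 14.9% and 3.01%, and around Dmc1 13.1% and 2.01%. The 14 genes without a covered base lay in surroundings from 2.77% at Trip13 to 9.14% at Bhmg1. The other 6 genes, Mei1, Mei4, Rec114, Psmc3ip, Mnd1 and Msh5, were at or above their surroundings, and 3 of them act in break formation. With 250 kb on each side 33 of 37 genes were less covered, against 63.4% of all protein-coding genes. At a −log10 q of at least 3 there were 30, against 84.6% of all genes, so at that threshold the share was near the background. The lengths of the genes were not matched in these comparisons.

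**Figure D4:**
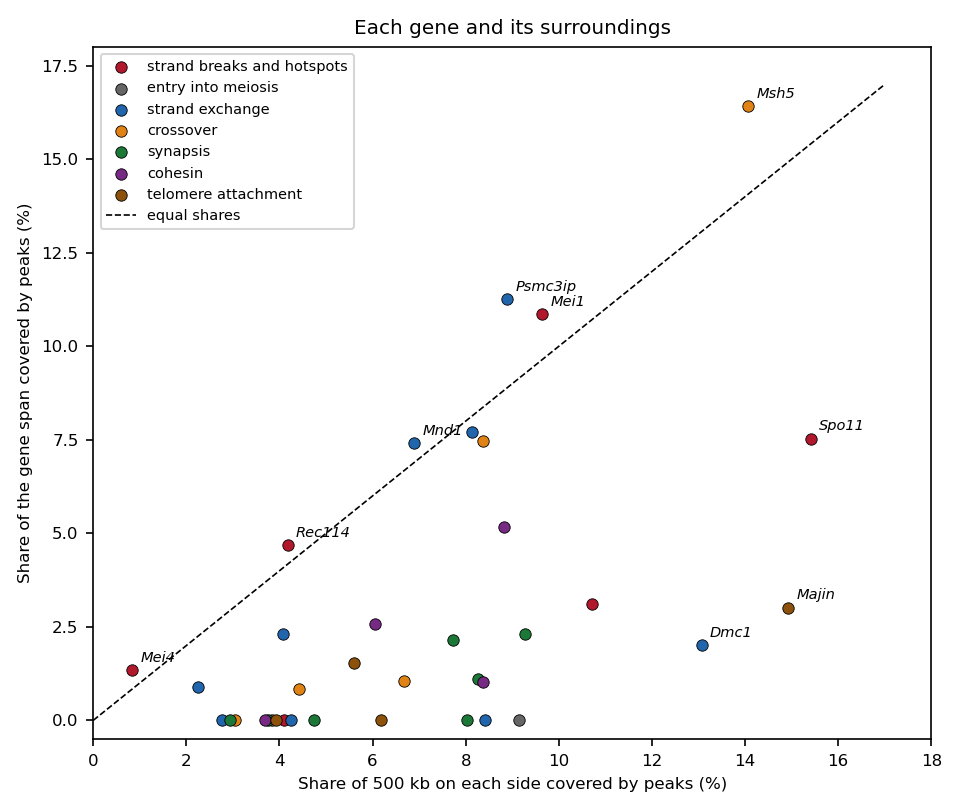
Share of each meiotic gene span covered by peaks (vertical, in percent) against the share of the 500 kb on each side (horizontal, in percent), with points coloured by function and a dashed line for equal shares. Of the 37 points 31 lie below the line, and Msh5, Psmc3ip, Mei1, Mnd1, Rec114 and Mei4 lie above it.

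Other meiotic genes, listed for comparison, had a peak in the span in a share whose interval overlaps that of the 37 genes, 44.8 to 77.5%. Of 78 such genes, 71 (91.0%; 82.4 to 96.3) had a peak in the window, against 78.7% of all protein-coding genes. In the span 61 (78.2%; 67.4 to 86.8) had one, against 61.6%. Both intervals lie above these background shares, but the lengths of these genes were not matched. Their median share covered was 3.11%, against 2.25% over all protein-coding genes. Many of these genes also act in the repair or cohesion of dividing cells. The highest folds in their windows were 8.51 at Mdc1, from a peak in the neighbouring Tubb5, 8.13 in Zcwpw2, 7.55 in Zcwpw1, whose protein reads the marks that PRDM9 makes, 7.51 beside Rpa3 and 7.15 in Sun1, a gene of the envelope bridge that moves telomeres. Sycp1, of the transverse filament, had 4 span peaks with a fold up to 6.47. Stra8 had 3 span peaks with a fold up to 4.24. Hormad1 had 1 flank peak of 2.90, and Sycp3 had no peak in its window. None of the 57 with a promoter entry had a peak in the promoter window (0 to 6.27%), against 4.48% of all genes with an entry, a share inside this interval.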

How the data were processed

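The authors' deposited file is a list of broad peaks of the captured library, on mm10. The submitters' processing notes name MACS2 2.1.0, Bowtie2 2.5.0, Trim Galore, deepTools 3.5.1, bedtools 2.27.1 and SAMtools 1.16.1. Which tool did what, with which settings and which control, is not given in the sources used here. Each deposited fold is a ratio to the caller's background, the deposited −log10 p and −log10 q belong to the whole broad peak, and the deposited score equalled 10 times that −log10 q, rounded down, for 108385 of 108395 peaks. Neither the −log10 p nor this score was used further. A weak threshold adds weak peaks, and reads from repeats could not be checked.

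Gene spans, starts and promoter sequences came from RefSeq tables of GRCm38.p6, the same build. All 37 symbols matched, as did 81 of 83 other symbols, 5 by synonym, which name 78 further genes. Of 49997 genes in the table, 340 were dropped since their start is in the first 3 Mb of a chromosome, which is unassembled. Exons and introns were not used here. Python 3.11.15, numpy 2.4.6, pandas 2.3.3 and scipy 1.17.1 were used, and interval and motif counts were tested on simulated data. A 1 bp overlap counted; gene ends were 1 kb windows on both sides of an end. The members, groups and lists were chosen with earlier results of these data known. All members, the neighbours their peaks touch, and of the other list the 5 highest folds and 4 set genes are named; another set gene is not reported here.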

Additional observations from a re-analysis of the deposited data

How the results depend on the processing

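The threshold of the peak list had the widest effect. With a −log10 q of at least 3, and then of at least 5, the meiotic genes with a peak in the window fell to 15 and 7 (37.2% and 16.3% of all protein-coding genes), their window peaks to 26 and 13, the genes with a span peak to 9 and 5 (22.6% and 8.83% of all), those with a peak within 1 kb of a gene end from 8 to 0 and 0 (4% and 1.27% of all), those with a peak within 1 kb of a start to 0 and 0 (1.54% and 0.452%), the other meiotic genes with a window peak to 32 and 14, the median share covered to 0% and 0%, the same as for all genes, and the peaks per Mb of span to 8.68 and 4.34 (7.82 and 2.70 for all genes). A peak midpoint within 1 kb of a gene end was found in 3 genes in place of 8 (18.2% of all genes). Flanks of 0 and 50 kb gave 68 and 363 peaks in place of 123, and a 2 kb window around a start gave 4 genes in place of 2 (23.7% of all). The other 30 of 50 alternatives moved a value by at most 1.5 times. The alternatives for starts and surroundings, the density without the 2 longest genes and those for the median fold were chosen after seeing the data. No paired analysis was possible because 1 library has a file. Without read counts no fold has an error, and 37 genes leave wide intervals: a share within them was not told from the background.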

Other observations

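Across the 37 meiotic genes the number of span peaks followed the length of the gene loosely, with a Spearman rho of 0.524, against 0.674 across all protein-coding genes. These values describe 1 library, and the genes share its depth.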
